A study of Rattus norvegicus with 17 samples.

Results

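Genes switched on from silence after sub-total nephrectomy were collected in rat kidney as the Ensembl identifiers with 3 estimated counts or fewer in every control library and at least 10 counts in at least 10 of the 12 libraries of operated rats. Of 23487 identifiers, 27 met this rule. Il19, Il24, Arntl2 and Rasgrf1 were left out of the description, which leaves 23 members. Since the members were selected on the counts of both groups, their difference between the groups is a property of the choice, and it is described here without a test. The kidneys came from male Wistar Han rats, and each bulk RNA-seq library was taken as a different rat, which the labels do not state. In the SNx group (n = 12) most of the right kidney was resected and the left kidney was removed later, so that a remnant of the right kidney was sequenced. The control group (n = 5) is labelled NoOp, whereas the study's methods call the controls of study 2, to which these rats belong, sham. The study set the end of each SNx rat by rises in proteinuria or serum creatinine. It reports that only a minority of the operated rats of study 2 reached those limits, fewer rats than the 12 libraries here. If each library is a different rat, some of the 12 libraries came from rats that did not reach them. The labels do not say which. The labels give no age or time after surgery.

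A gene with almost no RNA in a healthy kidney can become measurable when resident cells start to transcribe it or when cells that carry it enter or are carried into the sample. In bulk tissue, fewer cells of a type and less RNA per cell cannot be told apart. Failing remnant kidneys are known for injured tubules that secrete chemokines and proteases, for myofibroblasts that lay down collagen and tenascins, and for infiltrating leukocytes. Some chemokines of the CXC family draw neutrophils, matrix metalloproteinases cut matrix and cell-surface proteins, and transcription factors of the AP-1 family are induced within cells under stress.

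Total counts were lower in SNx, from 19210434 to 30784070 (median 22709319), than in NoOp, from 30454170 to 43876369 (median 32745316). The limit of 3 counts therefore corresponded to 0.0776 to 0.107 CPM (counts relative to the TMM-scaled library size, not corrected for gene length) in NoOp, and 10 counts corresponded to 0.320 to 0.491 CPM in SNx. The depths overlapped, since SNx 9 was deeper than NoOp 5. Among all identifiers, 6936 had 3 counts or fewer in every NoOp library, 2830 of these had at least 1 count in SNx, and 3881 identifiers had no count in any library. The opposite rule, 3 counts or fewer in every SNx library and at least 10 in at least 4 of 5 NoOp libraries, was met by 2 identifiers, LOC100911956 (14 to 34 counts in NoOp, 0 in every SNx library) and ENSRNOG00000016983 (8 to 22 counts in NoOp, 0 to 3 in SNx). Both were named after their values were seen. The opposite rule asked for silence in 12 libraries and the main rule in 5, so their numbers are not like with like.

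A symbol was found for 7 of the 23 members, namely the chemokine Cxcl6, the protease Mmp7, the matrix glycoprotein Tnn, the transcription factor Fosl1, the amino acid exchanger Slc7a11, the membrane protein Tmem59l and the carboxylesterase Ces5a. The other 16 are given by identifier, and no function is assigned to them. In the authors' table of normalized values 15 of the 23 are listed, whereas 8 members, none of them with a symbol, are outside it.

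RefSeq (assembly GRCr8) holds a promoter window, 250 bases before to 50 bases after the annotated start, for 7 of the 7 named members. The windows of a chemokine, a protease, a transcription factor and a matrix protein are shown because these genes carry the results on inflammation, matrix and stress. Capitals mark the letters of any of 5 motifs found on either strand, with N for any base: AP-1 (TGANTCA), NF-kB (GGNNTTTCC), STAT (TTCNNNGAA), the antioxidant response element (TGACNNNGC) and the TATA box (TATAAA).
Cxcl6: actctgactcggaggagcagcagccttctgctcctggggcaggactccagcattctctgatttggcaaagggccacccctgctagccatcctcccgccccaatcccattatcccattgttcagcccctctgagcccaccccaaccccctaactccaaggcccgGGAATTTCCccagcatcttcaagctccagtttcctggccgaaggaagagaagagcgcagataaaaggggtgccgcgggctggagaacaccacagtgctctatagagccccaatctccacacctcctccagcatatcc
Mmp7: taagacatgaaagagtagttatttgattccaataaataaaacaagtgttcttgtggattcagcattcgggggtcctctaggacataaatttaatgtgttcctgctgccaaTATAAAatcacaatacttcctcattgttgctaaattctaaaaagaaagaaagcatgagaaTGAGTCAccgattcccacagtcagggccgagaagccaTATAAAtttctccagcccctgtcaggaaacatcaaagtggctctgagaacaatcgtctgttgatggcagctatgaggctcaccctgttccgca
Fosl1: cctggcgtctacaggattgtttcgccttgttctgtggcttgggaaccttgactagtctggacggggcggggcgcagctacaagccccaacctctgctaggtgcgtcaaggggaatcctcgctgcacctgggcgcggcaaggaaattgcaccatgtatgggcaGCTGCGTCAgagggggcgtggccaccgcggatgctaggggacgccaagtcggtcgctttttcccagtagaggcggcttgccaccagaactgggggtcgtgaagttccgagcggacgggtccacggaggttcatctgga
Tnn: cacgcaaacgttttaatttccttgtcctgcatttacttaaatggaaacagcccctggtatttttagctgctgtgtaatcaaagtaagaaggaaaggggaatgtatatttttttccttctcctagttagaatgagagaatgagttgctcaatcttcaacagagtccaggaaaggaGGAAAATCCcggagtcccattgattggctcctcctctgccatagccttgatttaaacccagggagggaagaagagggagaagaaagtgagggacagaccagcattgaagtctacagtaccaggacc
These windows lie at chr14:17596368-17596667 on the minus strand (Cxcl6), chr8:13132793-13133092 on the plus strand (Mmp7), chr1:212183635-212183934 on the plus strand (Fosl1) and chr13:74919740-74920039 on the minus strand (Tnn). In Cxcl6 the NF-kB letters begin 87 bases before the start, and in Tnn they are found on the opposite strand, 76 bases before the start. The Mmp7 window holds the AP-1 letters 80 bases before the start and the TATA letters at 140 and 43 bases before it. The Fosl1 window holds the antioxidant response letters on the opposite strand, 88 bases before the start. Over all 33469 windows of this length, the AP-1 letters were found in 7.33%, the NF-kB letters in 6.05%, the STAT letters in 8.87%, the antioxidant response letters in 12.1% and the TATA letters in 14.2%. Among the 7 named members, 2 windows held the AP-1 letters (Mmp7 and Tmem59l), 2 the NF-kB letters (Cxcl6 and Tnn), 1 the STAT letters (Ces5a), 1 the antioxidant response letters (Fosl1) and 1 the TATA letters (Mmp7), whereas Slc7a11 held none of the 5. A match describes these letters only and does not show that a factor binds there.

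Summed over the 23 members, the level was 0.660 to 0.970 CPM in NoOp and 15.4 to 117 CPM in SNx (median 60.9 CPM). In 23 of 23 members every SNx library lay above every NoOp library in CPM, which the rule nearly forces, and over all 15438 genes tested this held for 13.5%. Of all genes tested, 30.3% were higher in SNx at FDR < 0.05 in edgeR's quasi-likelihood test. Nothing is read about the members from either share, because the rule used the same contrast. At least 10 counts were reached in 12 SNx libraries by 9 members, in 11 by 8 members and in 10 by 6 members. Only Ces5a and ENSRNOG00000006950 had 0 counts in all 5 NoOp libraries.

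**Figure D1:**
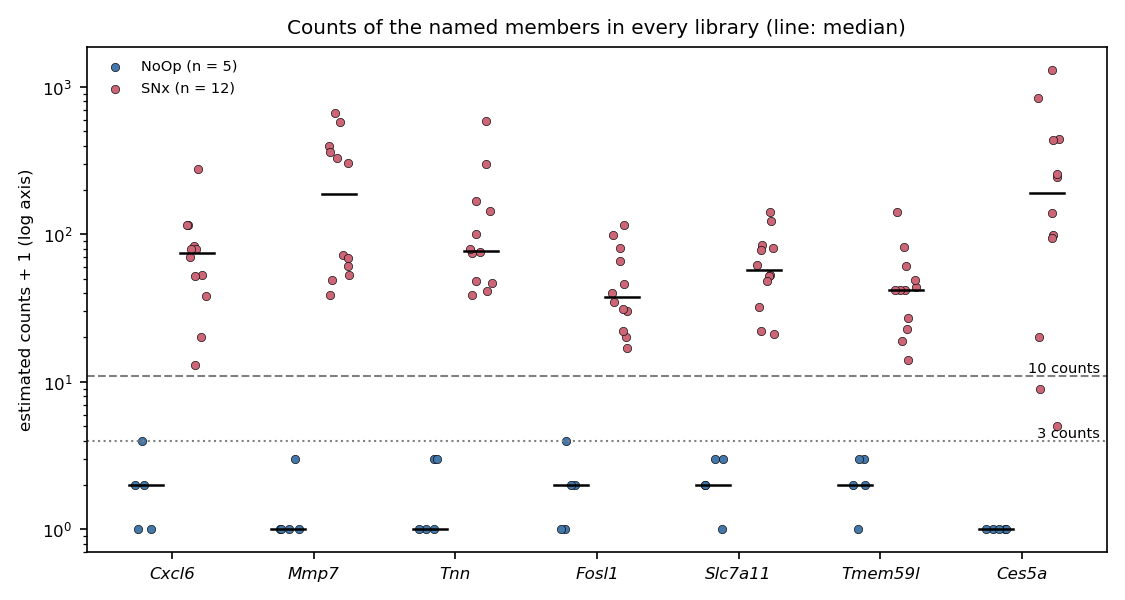
Estimated counts plus 1 (log axis) of the 7 named members in each of 5 NoOp and 12 SNx libraries, with a line at each group's median and dotted and dashed lines at 3 and 10 counts. All NoOp points lie at or under 3 counts, whereas Ces5a in SNx spans 4 to 1299 counts.

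Cxcl6 (ENSRNOG00000002843, chromosome 14) encodes a CXC chemokine that draws neutrophils. Its counts in NoOp 1 to 5 were 1, 0, 1, 3 and 0, and in SNx they ran from 12 in SNx 4 over a median of 74 to 278 in SNx 5. The groups did not overlap, and SNx 5 stood above the next libraries, SNx 1 (115) and SNx 10 (114). The SNx mean was 3.48 ± 3.06 CPM (SD, n = 12), and the ratio of the pooled CPM of the groups was 104, with a 95% exact interval of 44.3 to 321. This interval and those that follow treat the counts as independent reads, although they are estimates without molecular identifiers. They can therefore be too narrow even for counting error, and they do not cover the spread between rats. Since the rule chose members with few NoOp counts, the ratios can also be too high.

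Mmp7 (ENSRNOG00000010507, chromosome 8) encodes matrilysin, a secreted metalloproteinase known from injured epithelium. NoOp 4 had 2 counts and the other NoOp libraries 0, while SNx counts ran from 38 in SNx 5 over a median of 187.5 to 664 in SNx 1. SNx 1, 3, 6, 9, 10 and 12 held 304 to 664 counts, whereas SNx 2, 4, 5, 7, 8 and 11 held 38 to 71, with none between. Its SNx mean was 10.4 ± 10.2 CPM (SD, n = 12), and the pooled ratio was 778 (95% exact interval 215 to 6429), with 2 counts in all on the NoOp side. SNx 5, the library with the most Cxcl6, had the least Mmp7.

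Tnn (ENSRNOG00000002548, chromosome 13) encodes tenascin-N, an extracellular matrix glycoprotein of the tenascin family. NoOp 1 and NoOp 4 had 2 counts each and the other NoOp libraries 0, while the SNx libraries held 38 (SNx 11) to 589 (SNx 1) counts with a median of 76.5. SNx 1 and SNx 3 (300 counts) were far above the rest. The SNx mean of 5.88 ± 7.42 CPM (SD, n = 12) therefore exceeds the median of 3.40 CPM. The pooled ratio was 223 (95% exact interval 87.0 to 820).

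Fosl1 (ENSRNOG00000020552, chromosome 1) encodes Fra-1, a subunit of the AP-1 transcription factor. Its NoOp counts were 1, 0, 3, 1 and 0. In SNx they ran from 16 in SNx 4 over a median of 36.5 to 115 in SNx 1, followed by SNx 5 with 98 and SNx 8 with 80. The mean was 2.09 ± 1.58 CPM (SD, n = 12) and the pooled ratio 62.1 (95% exact interval 26.5 to 192).

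Slc7a11 (ENSRNOG00000010210, chromosome 2) encodes xCT, which imports cystine in exchange for glutamate and so feeds glutathione synthesis. NoOp libraries held 2, 2, 0, 1 and 1 counts, and SNx libraries 20 (SNx 4) to 141 (SNx 10) with a median of 56.5. SNx 10 and SNx 1 (123) were the highest and SNx 4 and SNx 11 (21) the lowest. The mean was 2.79 ± 1.90 CPM (SD, n = 12) and the pooled ratio 69.0 (95% exact interval 31.6 to 189).

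Tmem59l (ENSRNOG00000022432, chromosome 16) encodes a membrane protein best known from brain. Counts of 2, 1, 1, 2 and 0 in NoOp stood against 13 (SNx 10) to 140 (SNx 1) in SNx, with a median of 41. SNx 10, otherwise among the libraries with the most member RNA, had the least Tmem59l. The mean was 1.99 ± 1.68 CPM (SD, n = 12) and the pooled ratio 50.3 (95% exact interval 23.0 to 138).

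Ces5a (ENSRNOG00000025710, chromosome 19) encodes a secreted carboxylesterase known from the epididymis and, in cats, from kidney and urine. It had 0 counts in all 5 NoOp libraries, and 4 counts in SNx 1, 8 in SNx 4, 19 in SNx 5, and 94 to 1299 in the other 9 SNx libraries, with the highest count in SNx 2, then SNx 8 (832), SNx 3 (442) and SNx 9 (437). It thus had both the highest single count and the widest spread of all 23 members, with a mean of 12.8 ± 15.5 CPM (SD, n = 12). Against 3 counts over the NoOp group, pooled SNx CPM was at least 678-fold higher. In SNx 1, where 9 members had their highest level, Ces5a was at its lowest.

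Ces5a made up 0.164% of the summed member CPM in SNx 1 and 64.6% in SNx 2, and without it the sum ran from 14.1 CPM in SNx 11 to 117 CPM in SNx 1. After these values were seen, genes known from the epididymis were read beside it. Crisp1, a sperm-coating protein secreted there, had 0 counts in every NoOp library, and in SNx it was highest in SNx 2 (64) and SNx 8 (24) and at 0 in SNx 1 and SNx 4. Crisp3 was likewise at 0 in NoOp, at 176 in SNx 2 and 70 in SNx 8, and at 0 in SNx 1, SNx 4 and SNx 5. Adgrg2, a receptor of efferent ducts and epididymis, ranged from 4 to 11 counts in NoOp and peaked with 275 in SNx 2 and 250 in SNx 8, but had 39 counts in SNx 1. Eddm3b, a secreted epididymal protein, was highest in SNx 8 (33) and SNx 2 (27), and Spink13, an epididymal protease inhibitor, in SNx 2 (14) and SNx 3 (10). SNx 2 and SNx 8, the libraries with the most Ces5a, thus held the most Adgrg2, Crisp1, Crisp3 and Eddm3b, whereas the order of the other libraries differed between the genes, with 2 counts of Eddm3b in SNx 11 and 22 of Adgrg2 in SNx 7. Of an epididymis list of 8 genes, written after these values were seen and without Crisp3, Crisp1, Adgrg2, Eddm3b and Spink13 had an identifier, with a summed level of 0.152 to 0.454 CPM in NoOp and 0.500 to 14.8 CPM in SNx, and the part of these transcripts in the Ces5a result was not tested.

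**Figure D2:**
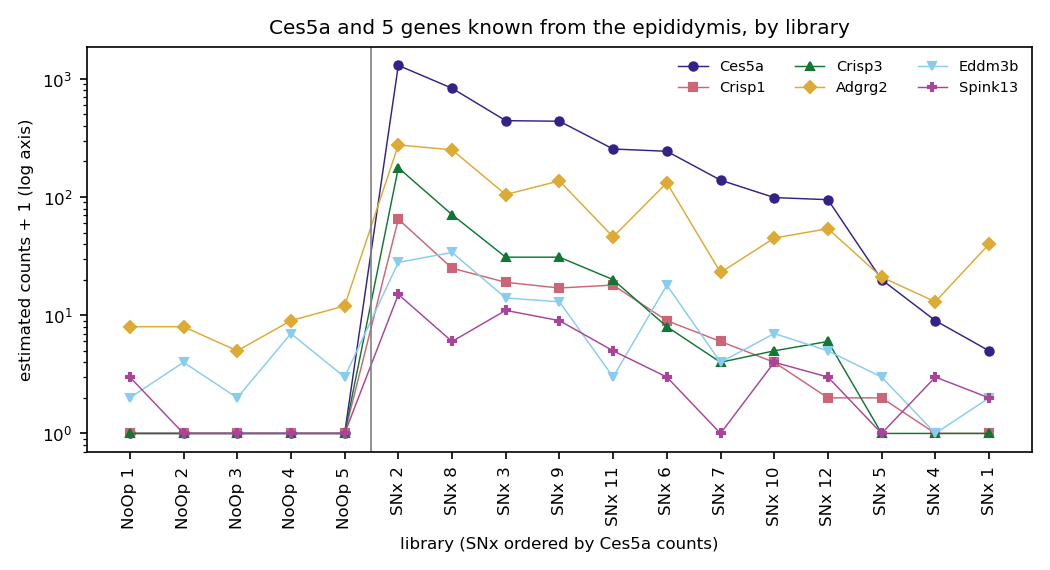
Estimated counts plus 1 (log axis) of Ces5a, Crisp1, Crisp3, Adgrg2, Eddm3b and Spink13 in each NoOp library and in the SNx libraries ordered by Ces5a. Ces5a falls from 1299 counts in SNx 2 to 4 in SNx 1, and Crisp1 and Crisp3 are at 0 in SNx 1 and in every NoOp library.

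The 16 members without a symbol had SNx means of 0.527 to 3.77 CPM (median 1.05 CPM). The highest was ENSRNOG00000019846, with 0 to 2 counts in NoOp, 6 counts in SNx 11, a median of 59 and 496 counts in SNx 10, the next library being SNx 6 with 81. Its mean of 3.77 ± 6.42 CPM (SD, n = 12) lay above its median of 2.37 CPM. ENSRNOG00000037339 followed with 13 to 112 counts (median 40), and it had 107 to 112 counts in SNx 1, 3, 7 and 10 but at most 49 in the others.

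ENSRNOG00000006151 and ENSRNOG00000006579 had 1 NoOp count each and, like Cxcl6, their highest counts, 219 and 151, in SNx 5. Their SNx medians were 32 and 34 counts. ENSRNOG00000008966 (median 44 counts, highest 67) also peaked in SNx 5, with 2 or 3 counts in each NoOp library, close to the limit. ENSRNOG00000019862 (median 27, highest 101 in SNx 1), ENSRNOG00000007664 (median 25.5, highest 67 in SNx 3) and ENSRNOG00000020945 (median 22.5, highest 60 in SNx 7) completed the 8 unnamed members highest in SNx. The second member with no NoOp count at all, ENSRNOG00000006950, held 7 to 83 counts in SNx and was at least 49.7-fold higher there against 3 counts over the NoOp group. The other 7 members, ENSRNOG00000013555, ENSRNOG00000016798, ENSRNOG00000025117, ENSRNOG00000033032, ENSRNOG00000056209, ENSRNOG00000059837 and ENSRNOG00000062090, had SNx medians of 12 to 23 counts and at most 44 counts in any library.

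**Figure D3:**
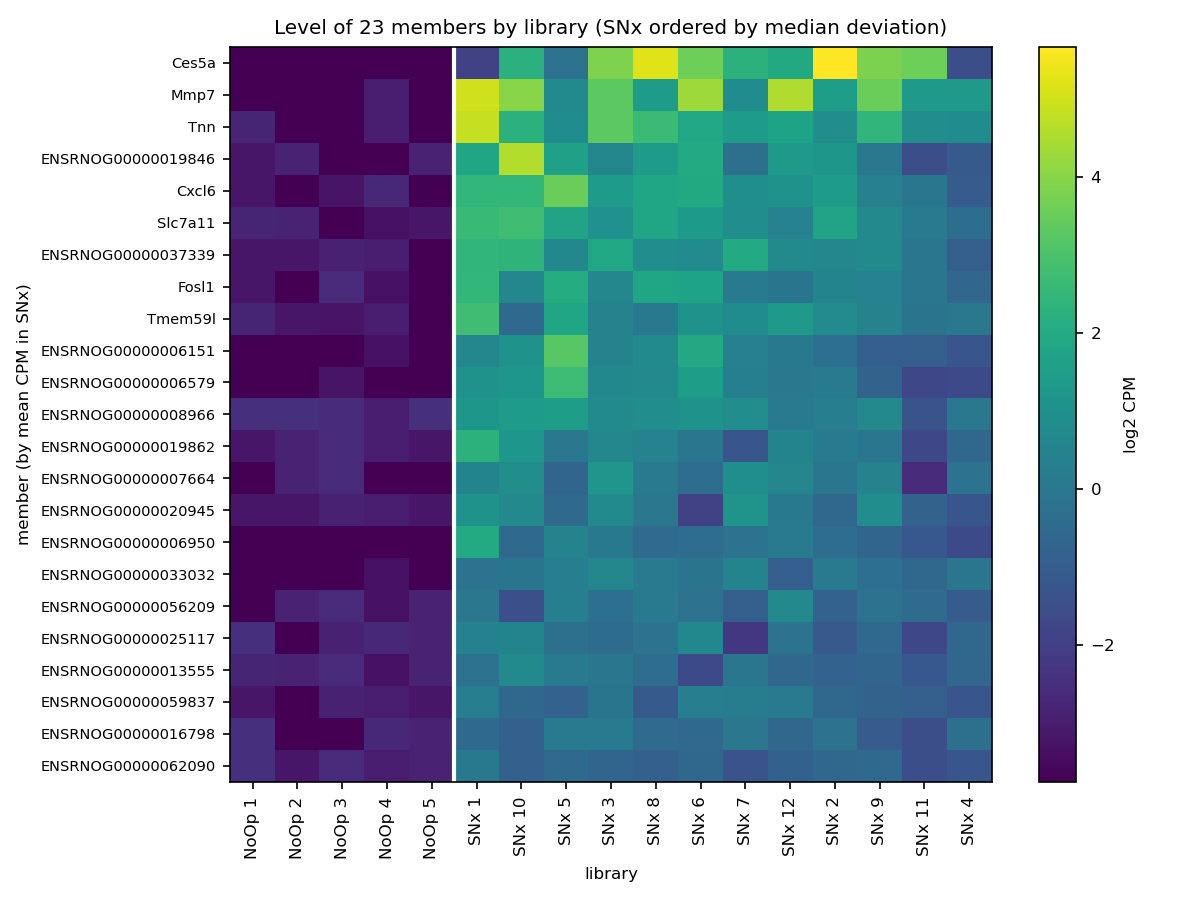
Level (log2 CPM, prior count 2) of the 23 members, ordered by SNx mean, in 5 NoOp libraries and 12 SNx libraries ordered by the median deviation of the members. SNx 1 is brightest for Mmp7 and Tnn, SNx 10 for ENSRNOG00000019846, SNx 5 for Cxcl6, ENSRNOG00000006151 and ENSRNOG00000006579, and SNx 2 for Ces5a.

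A highest NoOp count of 3 was found in 10 members, among them Cxcl6 and Fosl1, and 12 identifiers lay just outside with a highest NoOp count of 4. Of these, 4 have a symbol: the collagen-associated Cthrc1 (SNx median 41 counts), the B cell transcription factor Pax5 (41), the chloride channel protein Clic6 (75.5) and the neurotrophin Bdnf (56.5). On the other side, 6 members had exactly 10 SNx libraries with 10 counts, Ces5a and ENSRNOG00000062090 (median 12 counts) among them, and 16 identifiers, none with a symbol, had 9 such libraries and stayed outside. The SNx medians of these 16 were 10.5 to 31 counts.

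The spread between SNx libraries was wide for the members. The SD of log2 CPM over the 12 SNx libraries was 0.42 to 2.44 (median 0.98), and 23 of 23 members exceeded the median of 0.29 over all genes tested. The counts of the members are low, and the part of counting noise in this spread was not tested. Ces5a (2.44), ENSRNOG00000019846 (1.61) and Mmp7 (1.60) varied most, followed by ENSRNOG00000006579 (1.27) and ENSRNOG00000006151 (1.26). ENSRNOG00000062090 (0.42), ENSRNOG00000033032 (0.43) and ENSRNOG00000016798 (0.48) varied least. From the lowest to the highest SNx library the CPM differed 3.15-fold (ENSRNOG00000033032, 11 to 44 counts) to 264-fold (Ces5a), with a median over members of 10.8-fold.

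Which SNx libraries expressed most can be read from each member's deviation from its own SNx mean of log2 CPM. The median deviation was highest in SNx 1 (0.84), then SNx 10 (0.72), SNx 5 (0.50) and SNx 3 (0.31), and it was lowest in SNx 11 (-1.07) and SNx 4 (-1.18). SNx 1 held the highest level of 9 members, SNx 5 of 4, and SNx 10 and SNx 3 of 3 each, 19 of 23 in all. The 9 members that peaked in SNx 1 include Mmp7, Tnn, Fosl1 and Tmem59l. In contrast, 15 of 23 members were lowest in SNx 4 (8) or SNx 11 (7). Such shares were not taken over all genes, so these counts describe the members only. Only 2 members lay above their own mean in SNx 4 and 1, Ces5a, in SNx 11, and SNx 11 was the library with the fewest members at 10 counts, 13 of 23. Total counts were 28452364 in SNx 4 and 21865713 in SNx 11, the latter under the SNx median.

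**Figure D4:**
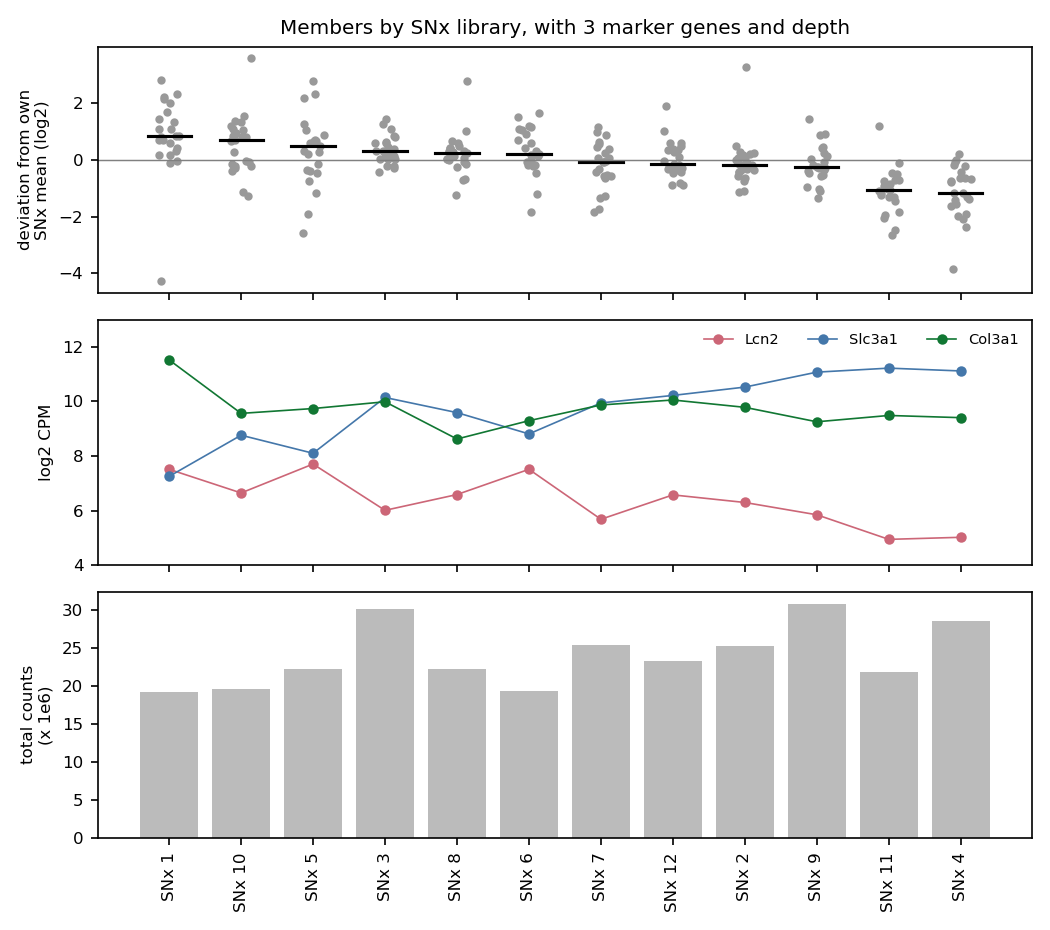
Upper panel: deviation of each of the 23 members from its own SNx mean (log2 CPM), 1 point per member, with the median as a line, for the 12 SNx libraries in order of that median. Middle panel: log2 CPM of Lcn2, Slc3a1 and Col3a1. Lower panel: total counts. SNx 11 and SNx 4, at the right end, have the lowest Lcn2 (4.94 and 5.02) and Slc3a1 above 11.

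Beside this order, 3 genes were read as measures of the kidneys. Lcn2, a protein secreted by injured tubules, was at 1.14 to 1.96 log2 CPM in NoOp and, within SNx, lowest in SNx 11 (4.94) and SNx 4 (5.02) and highest in SNx 5 (7.70), SNx 1 (7.51) and SNx 6 (7.51). Slc3a1, a cystine transporter subunit of the proximal tubule brush border, was lowest in SNx 1 (7.25) and SNx 5 (8.10) and highest in SNx 11 (11.2) and SNx 4 (11.1), against 11.67 to 12.04 in NoOp. Col3a1, a collagen of scar tissue, was highest in SNx 1 at 11.5 and lowest in SNx 8 at 8.62, with SNx 4 (9.40) and SNx 11 (9.48) between. In contrast to the difference between groups, the relation of the members to these genes among the SNx libraries was not used by the rule, and it was tested across all genes with edgeR's quasi-likelihood test. A slope is the change in log2 CPM of a member per unit of log2 CPM of the marker. Each library was taken as a different rat.

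After the filter on low counts (filterByExpr on the 12 SNx libraries), 7 of 23 members were tested for a slope on Lcn2, and 3 rose with Lcn2, where 23.3% of the genes tested did. The slopes were 1.01 for Fosl1 (SE 0.16, FDR = 0.000498, edgeR), 0.81 for Tmem59l (SE 0.21, FDR = 0.00633) and 0.84 for Slc7a11 (SE 0.23, FDR = 0.0105). Mmp7 had a slope of 1.06 (SE 0.43, FDR = 0.0555) and Tnn one of 0.89 (SE 0.36, FDR = 0.0586), neither past the threshold. Without the filter 23 members entered, and 11 rose with Lcn2 against 17.0% of all genes tested. That share takes in genes with few counts in SNx, whereas the rule asked every member for counts there, so the comparison is not like with like. The lowest p-values belonged to Cxcl6 (slope 1.26, SE 0.18, FDR = 3e-04), ENSRNOG00000006579 (1.32, SE 0.20, FDR = 0.00043) and ENSRNOG00000006151 (1.35, SE 0.22, FDR = 0.000585). Without the filter 22 of 23 slopes were positive, the exception being Ces5a at -0.26 (SE 0.83, FDR = 0.835). With the total count as a second covariate, Fosl1 alone of the 7 passed the threshold, while the slope was 0.85 for Tmem59l (FDR = 0.0589) and 0.58 for Slc7a11 (FDR = 0.18). Without SNx 4 and SNx 11, the libraries with the least Lcn2, the slope was 0.87 for Tmem59l (FDR = 0.0526) and 0.61 for Slc7a11 (FDR = 0.169). Without SNx 1 the slope of Tmem59l was 0.53 (FDR = 0.0316) and passed the threshold.

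With Slc3a1 the signs were turned. Lcn2 and Slc3a1 themselves ran in largely opposite directions over the SNx libraries, so the slopes on Slc3a1 are not a second independent result. After the filter 5 of 7 members fell as Slc3a1 rose, where 27.1% of the genes tested did, namely Fosl1 (-0.70, SE 0.11, FDR = 0.000206, edgeR), Slc7a11 (-0.61, SE 0.14, FDR = 0.00185), Tmem59l (-0.56, SE 0.13, FDR = 0.00261), Tnn (-0.63, SE 0.19, FDR = 0.0127) and ENSRNOG00000037339 (-0.49, SE 0.18, FDR = 0.0303). Without the filter 13 of 23 fell, against 19.7% of all genes tested, a share with the same limit as for Lcn2. The lowest p-value belonged to Cxcl6 (-0.88, SE 0.14, FDR = 0.000187). Ces5a had a slope of 0.87 (SE 0.53, FDR = 0.218), the only positive one. Without SNx 1, the library with the least Slc3a1, 2 of 7 members passed the threshold, and the slope of Tnn was -0.06 (FDR = 0.876) and that of Tmem59l -0.34 (FDR = 0.115). ENSRNOG00000037339 lost its call without SNx 1 (slope -0.46, FDR = 0.153), SNx 4 (-0.40, FDR = 0.0631), SNx 10 (-0.43, FDR = 0.0538) or SNx 11 (-0.45, FDR = 0.0716), with slopes close to that of all 12 libraries.

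On Col3a1 few slopes of members passed the threshold. Tmem59l rose with Col3a1 (1.03, SE 0.22, FDR = 0.0243, edgeR), 1 of 7 members after the filter, against 2.63% of the genes tested. Without the filter it was joined by ENSRNOG00000006950 (1.09, SE 0.21, FDR = 0.0209), 2 of 23 members against 1.65% of all genes tested, again with that limit of the unfiltered share. Mmp7 (0.92, SE 0.48, FDR = 0.333) and Tnn (0.94, SE 0.29, FDR = 0.117) did not pass the threshold. Without SNx 1 no gene and no member passed the threshold in the quasi-likelihood test, and without SNx 8 Tmem59l had a slope of 1.09 that did not pass either (FDR = 0.0546).

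**Figure D5:**
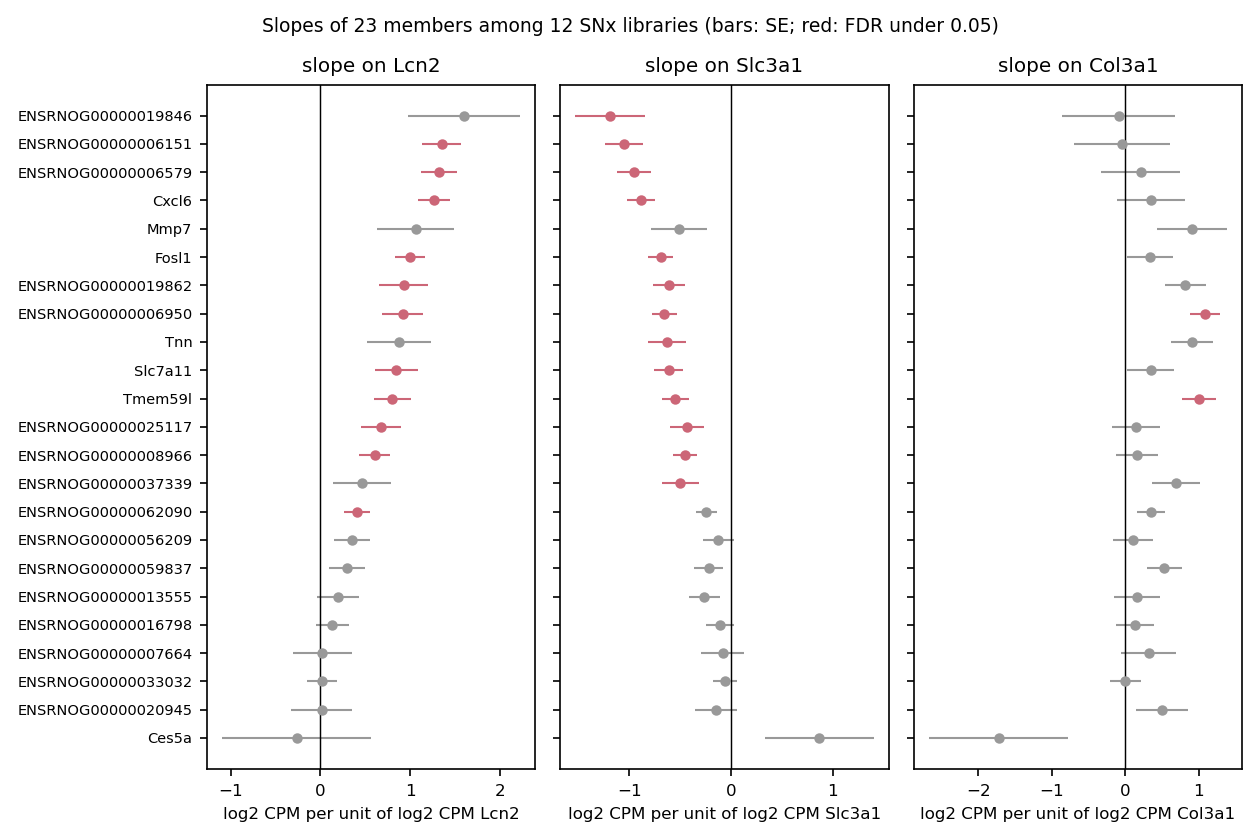
Slopes with standard errors of the 23 members on log2 CPM of Lcn2, Slc3a1 and Col3a1 among the 12 SNx libraries, fitted without the filter on low counts, with red for FDR under 0.05. For Lcn2 11 slopes are red and for Slc3a1 13, whereas for Col3a1 2 are red, and Ces5a, in the bottom row, has the opposite sign to most members in each panel.

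Library numbers and depth were examined in the same way. The titles of the samples begin with numbers that fall into a lower and an upper range, with 6 SNx libraries in each and all NoOp libraries in the lower one, and the labels do not say what they stand for. Of the 23 members 18 were highest in a library of the lower range, 9 of them in SNx 1, and 5 in one of the upper. The share over all genes was not taken, so nothing is read from this about the ranges. Between the ranges 0 of 15065 genes (0%) and 0 of 23 members passed the threshold, 777 genes but 0 members had an unadjusted p under 0.05, and DESeq2 called 0 genes as well. The largest differences among members, upper minus lower, were -1.33 for ENSRNOG00000006151 (SE 0.71, FDR = 0.832) and 1.09 for ENSRNOG00000019846 (SE 0.93, FDR = 0.842). With the lower range alone against NoOp the rule kept 22 of the 23 members, all but Ces5a, and with the upper range alone 21. The rule then asked for 5 of the 6 SNx libraries of a range. Members with 10 counts in at least 11 SNx libraries could therefore not be lost, and nothing is read from these numbers about the ranges. On total counts 0 of 13969 genes (0%) and 0 of 7 members had a called slope, although 5071 genes and 2 of the 7 members had an unadjusted p under 0.05 (edgeR). These 2 were Slc7a11 (slope -2.62, SE 0.85, FDR = 0.0755) and Fosl1 (-2.73, SE 0.95, FDR = 0.0821). Only 1 of the 7 member slopes was positive, and the median was -2.04. DESeq2 called 2969 genes and 2 members on total counts, and without SNx 11 the quasi-likelihood test called 5053 genes and 2 of 9 members.

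Genes of the same pathways that were not silent in NoOp were read from lists chosen with earlier results known, and here the test of SNx against NoOp applies to the genes that are no members. Over all genes tested, 30.3% were higher in SNx at FDR < 0.05 (edgeR). Members included, 5 of 11 listed genes had an identifier for neutrophil chemokines and the IL-17 response, and 4 of 12 for other chemokines. For the IL-6 family it was 9 of 12, for matrix metalloproteinases 6 of 9 and for early transcription factors 9 of 10. Besides Cxcl6, 4 other genes of the list of neutrophil chemokines and the IL-17 response had an identifier, and all 4 were higher in SNx: Lcn2 (log2 fold change 5.06, SE 0.53, edgeR FDR = 1.76e-06), Nfkbiz (2.91, SE 0.42), Il17rb (1.79, SE 0.32) and Il17re (1.78, SE 0.28). Lcn2 and Nfkbiz had their highest counts in SNx 5, as Cxcl6 did. Of the other chemokines 3 of 3 tested were higher, Ccl7, Ccl21 and Ccl22. In the IL-6 family and acute phase list 8 of 9 were higher, among them Socs3 (3.34, SE 0.43) and Lif (2.96, SE 0.47), whereas Ctf1 was lower (-1.06, SE 0.15).

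Of the matrix metalloproteinases, Mmp12 (5.28, SE 0.71, FDR = 1.71e-05), Mmp2 (2.26, SE 0.33) and Mmp14 (1.65, SE 0.25) were higher in SNx, Mmp11 did not pass the threshold (0.21, SE 0.12, FDR = 0.154), and Mmp3 was too low to be tested, with 0 to 3 counts in NoOp and 0 to 44 in SNx. Mmp12, the macrophage elastase, held 1 to 10 counts in NoOp and so missed the rule. Among AP-1 and other early transcription factors 7 of 8 were higher, the member Fosl1 not counted, among them Egr2 (3.93, SE 0.47), Atf3 (2.63, SE 0.36) and Fos (1.91, SE 0.56), while Klf4 did not pass the threshold (0.37, SE 0.28, FDR = 0.262). All genes named from these lists, other than the members and Mmp3, had more than 3 counts in at least 1 NoOp library.

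Markers of other cell types moved with the groups, and their part in the members' levels was not tested. Over all genes tested, 30.3% were higher in SNx at FDR < 0.05 (edgeR). Only listed genes with an identifier entered, 6 of 13 for B and plasma cells and 8 of 13 for T and NK cells. These were 12 of 13 for macrophages and dendritic cells, 7 of 11 for fibroblasts and, with Mmp7, 9 of 11 for injured tubule. For dividing cells they were 8 of 10, for urothelium and basal epithelium 8 of 11 and for adipose tissue 2 of 6. All genes with an identifier were higher in SNx in the lists of B and plasma cells (6 of 6, summed level 34.1 to 40.0 CPM in NoOp and 47.6 to 146 in SNx), T and NK cells (8 of 8, 25.0 to 41.6 and 86.2 to 161), macrophages and dendritic cells (12 of 12, 101 to 160 and 251 to 720), fibroblasts and myofibroblasts (7 of 7, 308 to 377 and 985 to 9517), injured tubule (8 of 8, the member Mmp7 not counted, with a sum over the list, Mmp7 included, of 933 to 1293 and 3886 to 18651) and dividing cells (8 of 8, 10.8 to 17.6 and 32.6 to 82.6). Of the urothelium and basal epithelium list 5 of 8 were higher, and the sum ranged from 4.56 to 27.0 CPM in NoOp and from 9.99 to 199 CPM in SNx. The 3 that did not pass the threshold were the uroplakin genes Upk2, Upk3a and Upk3bl (FDR = 0.765, 0.182 and 0.168). Of 2 adipose genes 1 was lower and 0 higher (33.5 to 108 CPM and 6.78 to 56.5 CPM), and 0 genes of the neutrophil and adrenal lists had an identifier with a symbol here.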

How the data were processed

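Kidney RNA of 12 SNx and 5 NoOp libraries was analysed, each taken as a different rat. The authors depleted ribosomal RNA, sequenced strand-specific libraries paired-end, quantified transcripts against rn6 and summarised them to genes with tximport (Salmon and limma are named in the submitters' processing notes, without versions). The study's estimates of RNA integrity ranged widely over its samples, down to very low values, and are not given per library. The part of RNA integrity in differences between libraries was therefore not tested. The deposited estimated counts per gene are whole numbers without normalization, and rounding them before the tests changed nothing. Of the authors' log2 voom tables only the identifiers were used, and 34 columns of the whole-series tables were not used. Depth was 19210434 to 43876369 counts per library, and 10 counts or fewer carry a large counting error.

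The members and lists were chosen with earlier results of these data known. Replicates were numbered in accession order. Counts were fitted in R 4.3.3 with edgeR 4.0.16 (filterByExpr, TMM, glmQLFit and glmQLFTest, two-sided, Benjamini-Hochberg over all genes tested, FDR < 0.05). SNx was compared with NoOp, and within SNx the ranges of label numbers and slopes on log2 CPM of Lcn2, Col3a1 and Slc3a1 and on log2 total counts were tested. Standard errors were derived from the estimate and its F statistic. log2 CPM used a prior count of 2. Intervals are 95% exact binomial intervals from scipy 1.17.1. Where a member had 0 counts in all NoOp libraries, its fold was taken against 3 counts over the group. The scripts were tested on simulated data.

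Named were all members with a symbol, the 8 members without a symbol with the largest SNx mean CPM over 3 counts, the 3 with the widest and the 3 with the narrowest SD, at most 3 members by p-value in each test, members and identifiers next to either limit, and Lcn2, Col3a1 and Slc3a1. Other genes of the lists were named after their values were seen. Symbols came from the transcript sheets of the study's supplementary data. Alternatives were DESeq2 1.42.0, RLE size factors, library size alone, other filters, other limits of the rule, the total count as a covariate, and leaving out libraries. Promoter windows came from RefSeq (GRCr8), and no coordinates were taken across builds. The epididymis list was written after the data were seen.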

Additional observations from a re-analysis of the deposited data

Results flagged for a closer look

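Among 58 sets of values screened, 3 held a library far from the other libraries of its set, with a gap to the nearest of the others above the 95% critical value of Dixon's ratio. Chance flags about 1 in 20 sets, which over 58 sets is about 3. For ENSRNOG00000007664, SNx 11 stood low among the 6 SNx libraries with upper label numbers, at -2.57 log2 CPM (2 counts) against 0.11 in the next library. For Fosl1, SNx 8 stood high among the same 6 libraries, at 1.83 log2 CPM against 0.60. For Col3a1, SNx 1 stood high among the 6 SNx libraries with lower label numbers, at 11.52 log2 CPM against 9.99 in the next library.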

How the results depend on the processing

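The number of members depends on the limits of the rule. It was 23 as reported, 2 with 0 counts in every NoOp library, 46 with up to 5, 9 with 12 of 12 SNx libraries, 48 with 8 of 12, 68 with a minimum of 5 counts in SNx, 9 with 20 counts, and 35 with the SNx libraries of the lower label numbers alone. Leaving out any 1 library gave 23 to 33 members. All 23 members stayed in each time, which was fixed beforehand. The rule then allowed as many SNx libraries under 10 counts as before, so that no member could be lost. With limits on CPM it was 20, of which 19 were shared. Calls of members in SNx against NoOp are not read under any alternative, because the rule used the same contrast. With at least 10 counts in every library 0 members could be tested, since this filter removes genes silent in NoOp. Leaving out 1 library gave 7914 to 9438 genes called between SNx and NoOp.

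For the slope on Lcn2, 6622 genes and 3 members were called as reported, and 3160 genes and 1 member with the total count as a second covariate. Without the 2 libraries farthest from the median, SNx 11 and SNx 4, 3646 genes were called. The number of members called was 11 without the filter (23 tested), 5 with at least 10 counts in every library (9 tested) and 5 with DESeq2. Leaving out 1 library gave 5131 to 6536 genes and 3 to 5 members, 5 without SNx 4 or without SNx 5. For Slc3a1, 7506 genes and 5 members were called as reported, 4935 genes and 3 members with the total count as a covariate, 13 members without the filter, and 6417 to 7567 genes and 2 to 6 members with 1 library left out, 2 without SNx 1. For Col3a1, 419 genes and 1 member were called as reported, 944 genes with DESeq2, 0 genes and 0 members without SNx 1 and SNx 8 (422 genes at an unadjusted p under 0.05, edgeR), 2 members without the filter, 0 members with the total count as a covariate, and 0 to 453 genes and 0 to 1 members with 1 library left out, with 0 genes without SNx 1 and 251 without SNx 8. Between the label number ranges 0 genes and 0 members were called under every alternative run. For total counts the number was 0 genes and 0 members as reported, 2969 genes and 2 members with DESeq2, and 0 to 5053 genes and 0 to 2 members with 1 library left out, 5053 and 2 without SNx 11. The cause of these shifts was not tested, beyond the numbers of genes and libraries that the alternatives themselves change.

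Of the 9 slopes called for single members, none changed sign, and 18 of 171 alternative fits lost the call. Scaling by library size alone moved none of the 23 member levels by more than the SD between SNx libraries. No paired analysis was possible because the labels give no replicate numbers, and those used here follow accession order only. With 10 to 30 counts in many SNx libraries and 3 or fewer in NoOp, small differences between members are not detectable at this depth.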
